A study of Danio rerio with 2 samples.

Results

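The parvalbumin family of the zebrafish comprised 9 of the 27098 gene features measured in each library, pvalb1 to pvalb9, taken as all features whose identifier begins with pvalb. Their RNA was compared between 2 pools, each sequenced as 1 library. The embryo library was made from whole zebrafish embryos, in samples of 15 embryos, and the liver library from livers dissected from adult zebrafish. Both had been exposed for 48 h to 9 compounds known to harm the human liver, namely valproic acid, amiodarone, tetracycline, paraquat, chlorpromazine, thioacetamide, cyclosporine A, acetaminophen and 17a-ethynylestradiol. RNA of the exposed samples was mixed in equal amounts within each source, so no value belongs to 1 compound, and developmental stage, tissue and library cannot be told apart. Not given were the strain, the age of the embryos and the sex of the adults.

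Parvalbumins are small cytosolic proteins of the EF-hand superfamily that bind calcium and magnesium ions. In fast skeletal muscle they take up calcium after each contraction and so speed relaxation, and they are among the most abundant soluble proteins of the white muscle of fish. Outside muscle they act as calcium buffers in neurons, such as inhibitory interneurons and Purkinje cells, and in the sensory hair cells of the inner ear and lateral line, where the branch of the family called oncomodulin is found. In RefSeq the synonyms of pvalb8 and pvalb9 are ocma and ocmb, the oncomodulin names, and pvalb7 is a marker of zebrafish Purkinje cells.

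In all, 11408727 reads were assigned to genes in the embryo library and 13020149 in the liver library. As a check of the labelled tissue, all 8 hepatocyte genes of a fixed list were higher in the liver library, with 984426 liver reads against 33540 embryo reads. Of the 21750 features with 10 or more reads in either library, 3.35% were called higher in the liver library. With 1 library per source there was no replicate check and no test between sources. Ratios, shares and levels are given with exact 95% intervals in brackets, which cover counting error only. Calls required that the whole interval lay at or past 4-fold and that the higher library held 10 reads or more. Where a library had 0 reads, 3 reads were taken as the limit that such a count allows, equal to 0.230 CPM (counts scaled to a common library size) in the liver library, and the fold is then written as at least that value. These 3 reads are a one-sided limit, and the interval used for calls, split over both tails, starts lower, so its lower end is printed beside each such fold.

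The parvalbumin genes were abundant in the embryo library and almost absent from the liver library. Together they had 131259 embryo reads, 1.15% of that library (1.14 to 1.16), and 52 liver reads, or 11505 CPM against 3.99 CPM. The family sum was 2881-fold higher (2197 to 3857) in the embryo library. All 9 genes were called higher in the embryo library and 0 in the liver library, where 30.9% and 3.35% of the 21750 features that had 10 or more reads in 1 library or both were so called. Across those features the median log2 ratio of embryo over liver was 1.60, and the 9 genes ranged from 5.09 to 14.83 with a median of 7.27. The 4 genes with no liver read entered at the 3-read limit, so the median of 7.27 is a lower limit. In pools of whole organs or animals, fewer cells of a type and less RNA per cell cannot be told apart.

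The level per length, in reads normalised to exon length and library size (RPKM), spread the family over a wide range in the embryo library. The highest value belonged to pvalb2, at 8812 RPKM (8748 to 8877), and this was the highest of all features in that library. It was followed by pvalb1 at 7294 RPKM (7231 to 7357), which stood 3rd, after the alpha-actin gene actc1b at 8008 RPKM. These 2 genes held 93.5% (93.4 to 93.6) of the family's embryo reads and 94.2% of its summed RPKM. A middle position was taken by pvalb4 at 662 RPKM (644 to 681), 11.01-fold below pvalb1 (10.7 to 11.3). The other 6 genes lay between 14.7 and 103 RPKM, so that the span from pvalb2 down to pvalb3, the lowest, was 601-fold. Their order was pvalb8 at 103 RPKM (96.4 to 109), pvalb7 at 81.8 RPKM (76.8 to 87.1), pvalb5 at 51.6 RPKM (46.6 to 56.9), pvalb6 at 47.4 RPKM (43.5 to 51.6), pvalb9 at 36.1 RPKM (31.7 to 40.9) and pvalb3 at 14.7 RPKM (12.1 to 17.6). Among neighbours in this order pvalb5 and pvalb6 differed by less than the counting error, with a ratio of 1.09 (0.953 to 1.24), and the closest pair beyond it was pvalb2 and pvalb1 with 1.21 (1.19 to 1.22). In the liver library no gene of the family passed 0.485 RPKM, the value of pvalb4, and 6 of the 9 had no exon read.

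**Figure D1:**
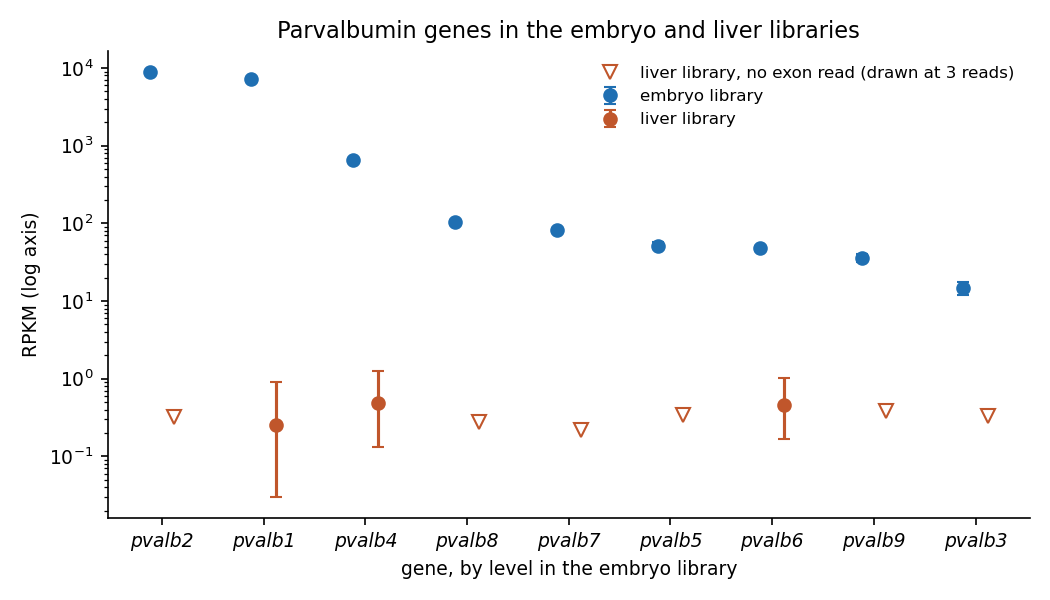
Level of each parvalbumin gene in RPKM (log axis) in the embryo library and the liver library, ordered by embryo level. Circles are the deposited RPKM with exact 95% Poisson intervals, and open triangles stand at 3 reads for genes with no liver exon read. Embryo values fall from 8812 for pvalb2 to 14.7 for pvalb3, and liver values are at or below 0.485.

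The 2 leading genes had the largest values of the ratio in the family, and their intervals lay above those of pvalb4, pvalb5, pvalb6 and pvalb7. They cannot be ranked against pvalb3, pvalb8 and pvalb9, which had 0 liver reads and so only a lower limit, set by their embryo reads. For pvalb2 the files held 71592 embryo reads and 0 liver reads, so it was at least 27235-fold higher by the 3-read limit, with an interval from 22148-fold upward. By the lower end of the interval this was the first of the 21750 measured features. With 0 liver reads that lower end is set by the number of embryo reads. By the ratio, taken at the 3-read limit for pvalb2, pvalb1 stood 3rd and pvalb2 5th. For pvalb1 there were 51133 embryo reads and 2 liver reads, a ratio of 29178 (8077 to 240936). The interval of pvalb1 is wide because it rests on 2 reads, and it does not place pvalb1 above or below pvalb2. Both sets of reads came almost wholly from exons, and 35.4% of the exon reads of pvalb2 and 24.0% of those of pvalb1 crossed an exon-exon junction in the embryo library, against 22.0% over all features.

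Next in level, pvalb4 had 4886 embryo reads and 14 liver reads and a ratio of 398 (237 to 729). It was one of 2 members with at least 10 liver reads. The other was pvalb6, with 569 embryo reads and 19 liver reads, whose ratio of 34.2 (21.7 to 57.2) was the lowest value of the family with total gene reads. Its interval overlapped those of pvalb5 (33.4 to 155) and pvalb3 (from 35.0), so the order of these genes is not settled. Leaving pvalb1 and pvalb2 aside, the remaining 7 genes still had 8534 embryo reads against 50 liver reads, a ratio of 195 (148 to 263).

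The genes tied by name or marker use to sensory cells and neurons were also higher in the embryo library, at much lower levels than the leading pair. For pvalb8, a hair cell marker in zebrafish, 1023 embryo reads stood against 0 liver reads, at least 389-fold by the 3-read limit, with an interval from 316-fold upward. The second oncomodulin-named gene, pvalb9, had 259 embryo reads and 0 liver reads, at least 98.5-fold by the same limit (interval from 79.6). The Purkinje cell marker pvalb7 had 1217 embryo reads and 9 liver reads, a ratio of 154 (81.0 to 338). Of the 2 genes left, pvalb5 had 465 embryo reads and 8 liver reads, a ratio of 66.3 (33.4 to 155), and pvalb3 had 115 embryo reads and 0 liver reads, at least 43.7-fold by that limit (interval from 35.0). For pvalb3 the bound is set by its low embryo level, and at this depth a larger difference was not detectable.

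**Figure D2:**
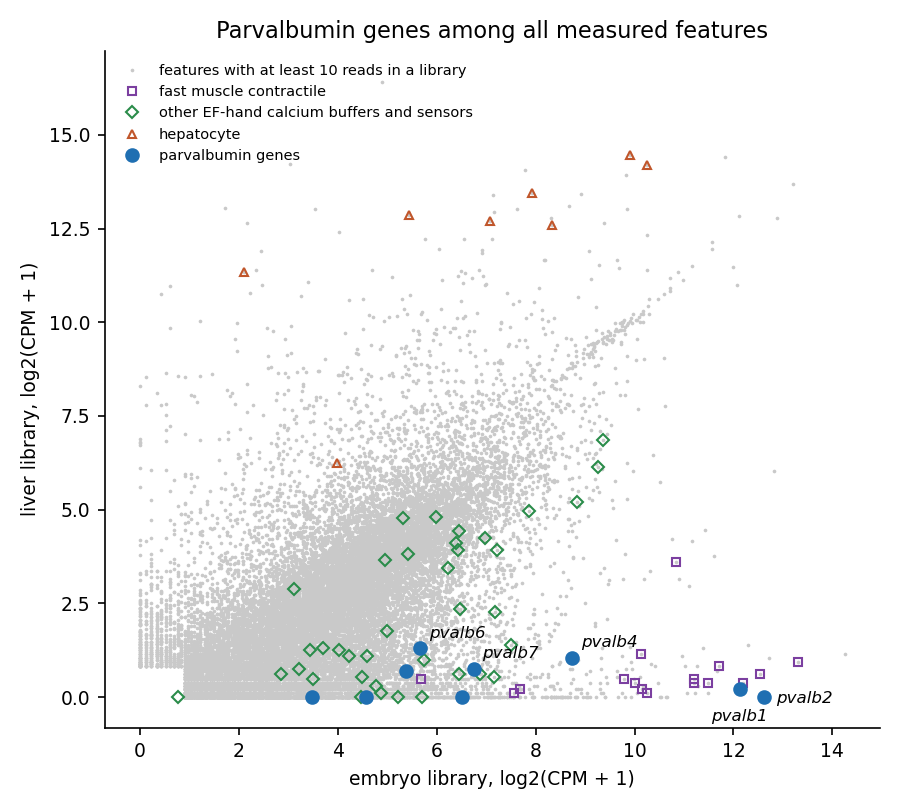
Each point is a gene feature with its log2(CPM + 1) in the embryo library (x axis) and the liver library (y axis), over 21750 features in grey, with the parvalbumin genes, the fast muscle and other EF-hand lists and the hepatocyte list marked. The 9 parvalbumin genes lie along the bottom edge, between 0 and 1.46 CPM in the liver library, with pvalb1 and pvalb2 at the right among the fast muscle genes.

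The few liver reads of the family lay mostly outside exons. Of the 52 liver gene reads 40 fell in the gene region but in no exon, 76.9% (63.2 to 87.5), whereas in the embryo library 639 of 131259 did, 0.487% (0.450 to 0.526). For pvalb5 all 8 liver reads and for pvalb7 all 9 liver reads were outside exons. For pvalb4 10 of the 14 liver reads were outside exons, leaving 4 exon reads, and for pvalb6 13 of the 19, leaving 6. With the 2 exon reads of pvalb1 this gave 12 liver exon reads in the family, of which 3 crossed an exon-exon junction, 2 in pvalb4 and 1 in pvalb6. Median coverage, the authors' deposited depth per base of each gene, was 0 in the liver library for all 9 genes, and in the embryo library it ranged from 7 for pvalb3 to 5396 for pvalb2.

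Features with as few liver reads also had high shares outside exons, though their pooled shares were lower than that of the family with total gene reads. Among the 6374 features with an exon length and with 2 to 19 liver reads, the range of the 5 detected members, 46.7% of the liver reads were outside exons, and among the 2594 of them called higher in the embryo library 56.3%. With total gene reads the interval of the family, on 52 reads of these 5 genes, lay above both pooled shares. With unique gene reads, which have no other position, 21 of the family's 33 liver reads were outside exons, 63.6% (45.1 to 79.6). That interval held both pooled shares, which are of total gene reads. Pooled shares of unique reads were not computed for these 2 sets of features, so an excess of the family was not tested there. The median share per feature, with total gene reads, was 42.9% and 63.6% in these 2 sets. Of these, 63.6% lay within the family's interval with total gene reads, though that interval is of a share pooled over reads, an unlike measure. The share over all features with an exon length was 8.32%. Counted on exons alone, the family had 130620 embryo and 12 liver reads, an embryo-to-liver ratio of 13073 (7484 to 25301), and all 9 genes were again called, where 36.4% of the features with at least 10 exon reads were. The exon ratio of pvalb4 was 1436 (561 to 5273) and that of pvalb6 108 (49.3 to 296), and with no exon read in the liver library pvalb7 was at least 392-fold (interval from 318) and pvalb5 at least 160-fold (interval from 129) higher by the 3-read limit.

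Outside exons the pools were closer. The family sum of such reads, scaled by the totals of all gene reads, was 18.2-fold higher (13.2 to 25.8) in the embryo library. The exon ratio of 13073 was scaled by the totals of exon reads instead. Over all features, with or without an exon length, 14.4% of embryo reads and 9.87% of liver reads lay outside exons. The ratios outside exons do not allow for that difference. The smallest difference was that of pvalb6, with 29 embryo reads and 13 liver reads outside exons, a ratio of 2.55 (1.28 to 5.33). Restricted to reads with 1 position, these were 12 and 8, and the ratio of 1.71 (0.643 to 4.83) did not differ from 1 beyond counting error. For pvalb7 there were 18 embryo reads and 4 liver reads with 1 position outside exons, a ratio of 5.14 (1.69 to 20.9). The regions of these 2 genes, 73.8 kb for pvalb6 and 73.7 kb for pvalb7, were the longest of the family, the others being 2.08 to 9.65 kb long. That of pvalb7 shares 37.4 kb with the neutrophil oxidase gene ncf4, which had 37 embryo reads and 22 liver reads. Whether strand was used in the counting was not stated, and reads in this overlap cannot be assigned to 1 of the genes.

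**Figure D3:**
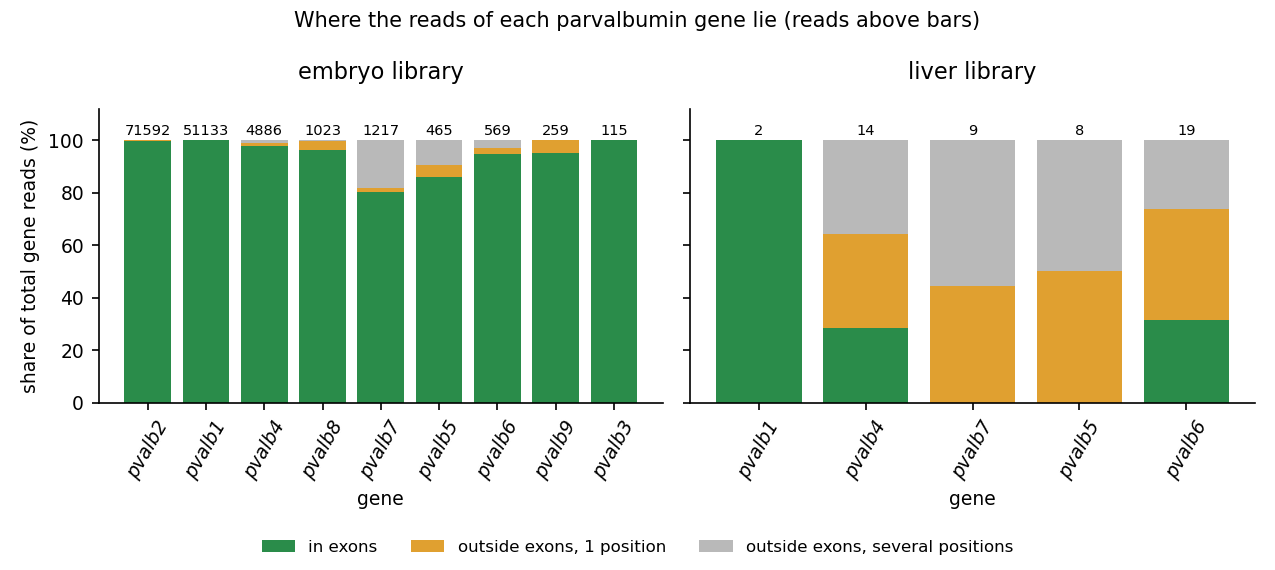
Share of the total gene reads of each parvalbumin gene (y axis, percent) that lay in exons, outside exons with 1 position, and outside exons with several positions, in the embryo library (left) and in the liver library (right, the 5 genes with a read). Numbers above the bars are total gene reads. Bars of the embryo library are at least 80.4% exon reads, and those of pvalb7 and pvalb5 in the liver library hold none.

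Reads with several positions had almost no part in the exon counts. Where the other positions lay, in paralogs or elsewhere, was not given. In the embryo library 130610 of 130620 exon reads of the family had 1 position, and the 10 others were 9 of pvalb7 and 1 of pvalb2. Over the whole gene regions unique reads in the embryo library made up 81.2% for pvalb7 and 90.5% for pvalb5, and 97.0% or more for the other 7 genes. The difference arose outside exons, where 220 of 238 embryo reads of pvalb7 had several positions. In the liver library 33 of the family's 52 gene reads and all 12 exon reads had 1 position. Such reads were 4 of 9 for pvalb7, 4 of 8 for pvalb5, 9 of 14 for pvalb4 and 14 of 19 for pvalb6. The ratio of pvalb7 was 154 with total gene reads, 265 (103 to 976) with unique gene reads and, by the 3-read limit, at least 392 (interval from 318) with total exon reads, and all 9 genes were called with each of these classes.

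**Figure D4:**
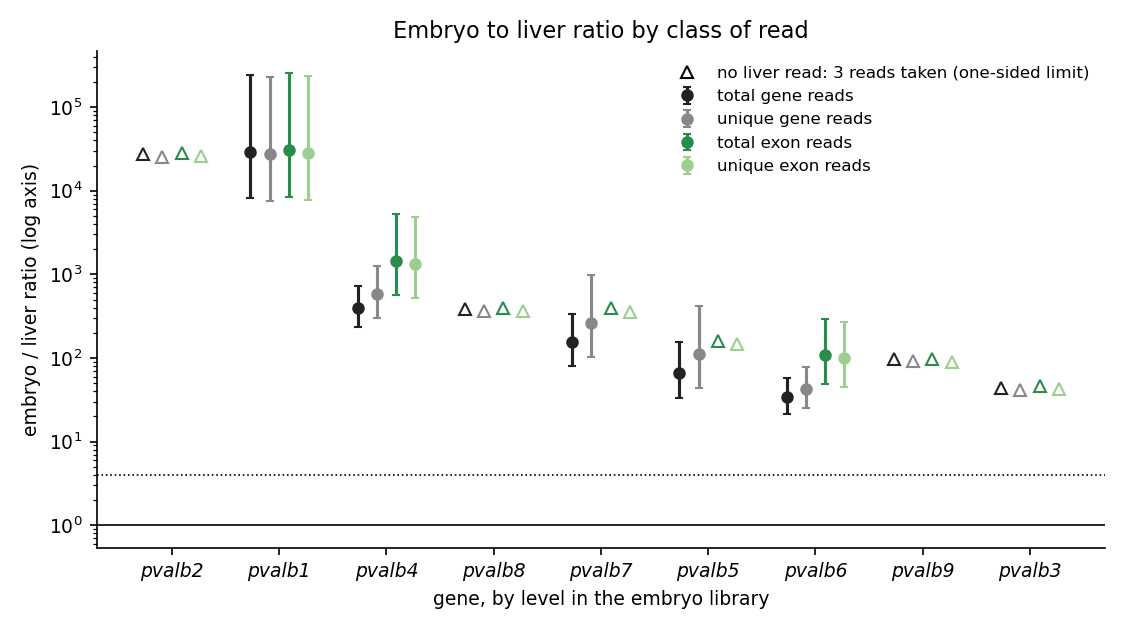
Ratio of embryo over liver (log axis) for each parvalbumin gene in 4 classes of reads, scaled by the library total of the class. Circles carry exact 95% intervals, open triangles are values with 3 reads in place of 0 (one-sided limits), the dotted line marks 4-fold and the solid line 1. All values lie above 4-fold, from 34.2 for pvalb6 with total gene reads upward, and exon reads raise pvalb4, pvalb5, pvalb6 and pvalb7.

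By the gene regions in the files, whose build was not stated, most of the family lay in 2 groups of neighbouring genes. All had 5 exons except pvalb1 with 4, and exon lengths ran from 598 bases for pvalb9 to 1049 bases for pvalb7. The genes pvalb8, pvalb4, pvalb1 and pvalb5 followed each other within 64.1 kb with no other feature between them, and pvalb2, pvalb3 and pvalb9 within 16.4 kb of another chromosome. On the chromosome of the first group pvalb6 stood alone, 37903 kb away, and pvalb7 was on another chromosome again. Each group held 1 of the 2 leading genes, and levels of neighbours differed widely. In the embryo library pvalb1 made up 89.9% of the summed RPKM of its group and was 141-fold above pvalb5, the next gene at a gap of 6.01 kb. In the other group pvalb2 made up 99.4%, and pvalb3, 2.91 kb away, was the lowest gene of the family. The group of 4 had 57507 embryo reads and 24 liver reads, and the group of 3 had 71966 embryo reads and no liver reads. Genes at the edges of the groups had smaller ratios. The feature LOC564666, 3.08 kb beyond pvalb5, had 605 embryo reads and 362 liver reads, a ratio of 1.91 (1.67 to 2.18), and zgc:55344, 9.77 kb beyond pvalb9, had a ratio of 1.95 (1.62 to 2.34). The highest ratio among the neighbours was that of si:dkey-205o12.6, the feature before pvalb7, at 11.03 (3.42 to 56.6) on 29 embryo reads and 3 liver reads. Of the 8 features next to the family's genes, 7 had reads and 0 were called in either direction, where 30.9% of measured features were called higher in the embryo library.

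**Figure D5:**
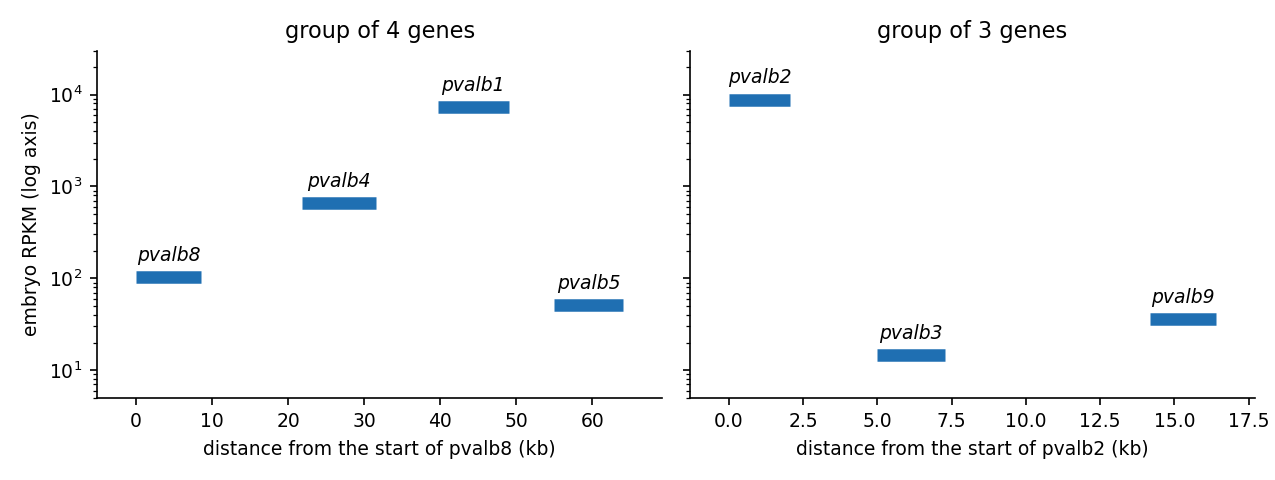
Level in the embryo library (RPKM, log axis) against position for the group of 4 genes and the group of 3 genes, as distance in kb from the start of pvalb8 and of pvalb2. Each bar spans a gene region, and pvalb1 and pvalb2 stand above their neighbours, at 7294 and 8812 RPKM.

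The features nearest to pvalb2 in the plane of the 2 libraries, by distance in log2(CPM + 1), were pvalb1, the fast muscle tropomyosin gene tpma, the myosin light chain gene mylz2, the myosin heavy chain gene myhz1.2 and ns:zf-e68. They had 32739 to 76838 embryo reads and 1 to 14 liver reads. The nearest to pvalb6, the family member with most liver reads, were zgc:114137, LOC100333080, cacna1c, which encodes a voltage-gated calcium channel, cyp26b1, which encodes a retinoic acid hydroxylase, and LOC100006496. With 2 libraries, likeness of this kind says no more than that both levels were close.

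Genes of fast muscle, where parvalbumins are known to act, showed the same direction. All 17 measured genes of 18 in the fast muscle contractile list were higher in the embryo library, with a median log2 embryo-to-liver ratio of 12.08. Of all measured features 30.9% were called higher there. The list summed to 39372 CPM in the embryo library and 17.5 CPM in the liver library, where 146 of its 228 reads were those of the alpha-actinin gene actn3b, and 1 of its genes, tnni2b.1, had no liver read. Its most abundant members were actc1b with 115161 embryo reads and 12 liver reads, mylz2 (mylpfa) with 68116 and 7, tpma with 53161 and 4, and the myosin light chain gene mylz3 with 37953 and 10. Against these, pvalb2 had 71592 embryo reads and no liver reads. The part of muscle RNA carried over in dissection in the liver values was not tested. All 9 genes of the slow muscle list were also higher in the embryo library, with a median of 5.99, led by the slow myosin gene smyhc1 with 12100 embryo reads and 1 liver read. In the liver library this list had 311 reads, or 23.9 CPM, of which 222 were those of tpm2. The direction was not particular to muscle. Called higher in the embryo library were 7 of 8 epidermis, 5 of 5 intestine, 3 of 11 pancreas and 3 of 7 blood genes. Their median log2 ratios were 8.43, 3.85, 1.55 and 1.37, and 3 blood genes were called higher in the liver library.

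Genes that release calcium to the muscle cytosol and pump it back were mostly higher in the embryo library. Of 21 measured genes of 23 listed, 17 were higher there, 0 in the liver library and 4 in neither. The median log2 embryo-to-liver ratio was 7.05, and 15 genes were higher with trimmed-mean (TMM) scaling. Of all measured features 30.9% were called higher in the embryo library, and 15.8% with TMM scaling. The pump of the fast muscle reticulum, atp2a1, had 36913 embryo reads and 8 liver reads, a ratio of 5266 (2672 to 12198). Its paralog atp2a1l had a ratio of 1307 (663 to 3028), and the calcium store protein gene casq1a (zgc:100957 in the files) one of 602 (317 to 1316). The 4 genes called in neither direction were atp2a2b, cacnb1, fkbp1aa and fkbp1ab, named after their values were seen. The pump gene atp2a2b had 1473 embryo reads and 1524 liver reads. The ratios of cacnb1, at 4.79 (3.56 to 6.56), fkbp1aa, at 4.03 (3.74 to 4.35), and fkbp1ab, at 4.37 (2.73 to 7.24), were above 1. They were not called because their intervals reached below 4-fold.

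Other EF-hand proteins, the calcium buffers and sensors related to parvalbumins, had a lower median ratio than the family. Of 38 listed genes 37 were measured, 31 were higher in the embryo library, 0 in the liver library and 6 in neither, with a median log2 embryo-to-liver ratio of 3.59. With TMM scaling 16 of the 37 were higher in the embryo library. Of all measured features 30.9% were called higher there with library totals and 15.8% with TMM scaling. Calmodulin genes led the list, calm3b with 7476 embryo reads and 1496 liver reads, calm2b with 6982 and 904, calm1a with 5232 and 469, and calm2a with 2657 and 395. The calretinin genes, buffers of neurons chosen after their values were seen, had ratios of 218 (106 to 543) for calb2a and 306 (140.5 to 836) for calb2b. Of other members chosen in the same way, calb1 and scgn lay below these, and cabp5b, with 1 liver read, could not be placed above or below them. The ratio was 8.23 (5.07 to 14.1) for calb1, 7.10 (4.29 to 12.4) for scgn and 371 (66.1 to 14694) for cabp5b. The list was not tested against the family.

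Markers of the other cells known to hold parvalbumins were present in the embryo library. Of 11 genes of inhibitory neurons and the cerebellum 10 were higher there, or 9 with TMM factors. The median log2 embryo-to-liver ratio was 6.42. The glutamate decarboxylase gene gad1b (gad1 in the files) had 4058 embryo reads and 11 liver reads and gad2 had 3770 and 2. Of 9 measured hair cell genes of 12 listed, 4 were higher in the embryo library and 5 in neither, or 3 with TMM factors, where 30.9% and 15.8% of all measured features were. The list had 1739 embryo reads and 183 liver reads over the 10 genes matched. Its most abundant members were otofa (otof in the files) with 484 embryo reads and 19 liver reads, pcdh15a with 396 and 93, which was called in neither direction, otofb (LOC100331283 in the files) with 364 and 16, and ush1c with 268 and 27. No liver read fell on myo7aa or lhfpl5a, with 70 and 10 embryo reads. Heart markers, of a tissue not named above as holding parvalbumins, were higher in the embryo library in 6 of 6. They had 2134 embryo reads and 24 liver reads. How the reads of single parvalbumin genes divided among cell types was not measured in pools of whole embryos.

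Scaling between the libraries shifted all ratios alike. With TMM factors each log2 ratio of embryo over liver was lower by 1.35, and with median-of-ratios size factors by 1.38. All 9 genes were still called higher in the embryo library under both, where 15.8% and 15.5% of the measured features were. Such a shift cannot change the order of the ratios. The lowest value, that of pvalb6, was 13.4 (8.49 to 22.4) with TMM factors and 13.1 (8.32 to 21.9) with size factors.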

How the data were processed

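RNA of 1 embryo library and 1 liver library was sequenced, with groups assigned by the tissue label. The authors deposited whole-number read counts, per the file headers, for each gene region and for its exons, junctions and intron borders, each as total reads and as unique reads, which have 1 position. They also deposited RPKM, which was recomputed from total exon reads, exon length and the sum of total gene reads to within 0.088 reads. The deposited median coverage, a signal per gene, was used as a description. The build, annotation and aligner were not given in the sources used here, nor whether reads or fragments were counted. Copies made by PCR are not independent molecules, so intervals are lower limits of the error.

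Total gene reads were scaled by library totals. Ratios carry exact 95% Clopper-Pearson intervals of the conditional binomial, levels exact Poisson intervals (scipy 1.17.1). Reads outside exons are gene reads minus exon reads, and their ratios were scaled by the totals of all gene reads. TMM factors came from edgeR 4.0.16 and size factors from DESeq2 1.42.0. Calls and intervals were tested on data simulated with counting error only, so variation between samples and copies made by PCR were not covered. Alternatives were unique and exon reads, both scalings, other count minimums and 2-fold. List genes were matched on the feature name or else through RefSeq symbols of GRCz12tu (names only, with 18978 of 27098 features and all 9 parvalbumins matched). Named genes were every parvalbumin, the 5 features nearest to the most abundant one of each pool and up to 4 abundant members of each list. Other genes named (such as neighbours, an overlapping gene, actn3b, list members at 0 or against their list) were chosen after their values were seen. The values of 1 list member are not reported here. Members and lists were chosen with earlier results of these data known. Lists of pancreas, intestine, epidermis and blood were also fixed. In the liver library they summed to 1905, 84.5, 1223 and 205 CPM and in the embryo library to 6122, 1066, 15533 and 391 CPM.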

Additional observations from a re-analysis of the deposited data

How the results depend on the processing

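All 9 parvalbumin genes were called higher in the embryo library, and 0 in the liver library, with unique gene reads, total or unique exon reads, and TMM or size-factor scaling. The share of all features called higher there was 36.4% with total exon reads, 15.8% with TMM factors and 15.5% with size factors. For the other alternatives that share was not computed. No count minimum, a minimum of 50 counts, and 2-fold in place of 4-fold gave the same calls. These settings could not have removed a call, since each gene had passed 4-fold and the lowest embryo count, that of pvalb3, was 115. The size of the ratio did change. The family ratio of embryo over liver, 2881 with total gene reads, was 4262 with unique gene reads, 13073 with total exon reads, 12029 with unique exon reads, 1129 with TMM factors and 1105 with size factors. The exon classes leave 12 liver reads in place of 52, and each scaling applies 1 shift to all genes. Of 45 ratios of single genes under these alternatives, 22 stayed within the interval of the first value, 23 moved out of it and 0 turned direction. Of 27 shares of single genes in the embryo family total, 6 moved beyond counting error, those of pvalb5 and pvalb7. Shares within the 52 liver reads are too thinly filled to rank the genes. No paired analysis was possible because each source had 1 library. The folds of pvalb2, pvalb3, pvalb8 and pvalb9, which had no liver read, are limited by depth and also moved with scaling, that of pvalb2 from 27235 to 10670 with TMM factors and 10450 with size factors.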
